A study of Mus musculus with 19 samples.

Results

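The genes described here are a set of axon growth effectors of dorsal root ganglion (DRG) neurons, namely the small proline-rich genes Sprr1a, Sprr2b and Sprr2c-ps, the growth cone genes Gap43 and Basp1, the transcription factor Sox11, the surface protein Flrt3, the peptidase Ecel1, and Ankrd1 and Csrp3. They were chosen by name, and 9 of the 10 have a row among the 12629 genes of the deposited table. Sox11 has no row, and its level was not analysed here. The set was put together with results of these libraries in view, because the effect of α9 integrin and kindlin-1 on such genes had appeared smaller after crush. The values that chose the set are those of both α9k1 comparisons, of α9k1-crush versus α9k1-naive and of the difference between the α9k1 effects, so for the set these are given as a description with no test.

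The study asked which genes neurons use when activated integrin lets their axons regenerate in the spinal cord. DRGs at C5-C8 on the left side received AAV5-fGFP (GFP), or a pair of vectors (α9k1), of which AAV5-α9-V5 carried the integrin and AAV5-kindlin1-GFP its activator, and in the crush groups the dorsal roots were crushed in the same operation. Neurons expressing GFP were sorted by FACS 8 weeks later, giving 5 libraries of GFP-naive, 6 of α9k1-naive, and 4 each of GFP-crush and α9k1-crush. All 4 groups thus carried AAV5, a GFP and the injury of the injection itself. Expression was driven by the CMV promoter for fGFP and kindlin-1 and by the CAG promoter for α9, none of which is specific for neurons, and the sort selected cells with GFP or kindlin1-GFP, not cells with α9. The labels name C57BL/6 mice, whereas the methods of the study name adult male Lewis rats, and reads were aligned to the mouse genome in either case. The libraries are described by the study as biological replicates. The labels do not say how many animals each came from, and p-values measure the spread between these libraries.

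Sensory neurons respond to a cut of their peripheral axon with a growth program, in which transcription factors such as Atf3, Jun and Sox11 come on and effector genes follow. Gap43 and Basp1 (CAP-23) are membrane-bound phosphoproteins that are abundant in growth cones and regulate actin. Sprr1a is a protein of the cornified envelope of skin that is induced in injured sensory neurons and promotes neurite outgrowth, and the Sprr2 genes are its relatives in the same gene cluster. A cut or crush of the central branch in the dorsal root is known to give a much weaker response than a peripheral cut.

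The Sprr genes are shown first by sequence, because 2 of them were measured only as far as reads can tell them from their relatives, and because the promoters of Sprr1a and Sprr2b hold the letters bound by AP-1, the factor formed by Jun and its partners. Promoter sequences were taken from RefSeq (GRCm38.p6), which has an entry for 8 of the 10 genes. The stretches run 5′ to 3′ up to the annotated gene, with capitals at TGANTCA. For Sprr1a it is chr3:92485896-92486131 on the minus strand, and for Sprr2b it is chr3:92316455-92316619 on the plus strand.
Sprr1a: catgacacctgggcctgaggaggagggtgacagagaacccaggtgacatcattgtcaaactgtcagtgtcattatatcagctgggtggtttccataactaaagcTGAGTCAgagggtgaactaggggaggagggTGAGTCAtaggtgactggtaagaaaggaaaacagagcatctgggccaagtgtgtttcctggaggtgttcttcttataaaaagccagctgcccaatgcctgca
Sprr2b: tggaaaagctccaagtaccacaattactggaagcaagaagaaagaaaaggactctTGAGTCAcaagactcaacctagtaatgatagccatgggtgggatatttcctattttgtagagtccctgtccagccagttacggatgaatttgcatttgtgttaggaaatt

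In Sprr1a, TGANTCA began 146 and 116 bases before the RefSeq start, and in Sprr2b it began 195 bases before it. None of these matches overlapped another motif searched. Of 32851 promoter windows of 250 bases, 6.75% held TGANTCA, and none of the other promoters of the set did. Ankrd1, a target gene of Yap and TEAD factors, had GGAATG at 210 and 123 bases before its start, a sequence found in 12.6% of all windows. The other motifs searched on both strands were TGACGTCA (1.55% of windows), ACAAAG (16.5%), CANNTG (66.2%), TATAAA (12.4%) and the CArG box (1.47%). TATAAA was present in Sprr1a and Sprr2b only, 43 and 29 bases before the RefSeq start. The last 14 bases of the Sprr1a window and the last 85 of the Sprr2b window lie inside the annotated gene. They are left out of the stretches shown, and the TATAAA of Sprr2b with them. A match is a description of the mouse sequence and not a measured binding site.

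Sprr2c-ps is annotated as a processed pseudogene of 301 bases on the plus strand of chromosome 3, from 92326600 to 92326900, and Sprr2b lies on the same strand from 92316620 to 92318085. Their first aligned 90 bases, from coding sequence in Sprr2b (chr3:92317450-92317539) and from the pseudogene (chr3:92326600-92326689), differ at 10 positions, which are in capitals.
Sprr2b: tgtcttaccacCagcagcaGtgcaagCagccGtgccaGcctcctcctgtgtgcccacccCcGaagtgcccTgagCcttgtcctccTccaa
Sprr2c-ps: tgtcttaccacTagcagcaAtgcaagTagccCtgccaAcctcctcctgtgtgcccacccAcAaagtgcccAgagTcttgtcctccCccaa

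Among Sprr transcripts, the pseudogene was most alike Sprr2e, at 87.1% identity within the alignment, followed by Sprr2f at 85.5%. With Sprr2b the alignment holds 87 gap positions and 66.2% identity. The deposited metrics give 75 bases per read, while the methods of the study name a somewhat shorter read, for which shared stretches were not counted. No stretch of 75 bases of Sprr2c-ps occurs in a transcript of another gene, while 3.94% of those of Sprr2b also occur in Sprr2a1. Since 3.87% to 4.05% of aligned bases differed from the mouse genome, exact stretches do not settle which Sprr2 gene a read came from. Values of Sprr2b and Sprr2c-ps are therefore uncertain as to the gene, and none of the 20 listed relatives in the cornified envelope family has a row.

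Depth was 36.4 to 87.6 M read pairs per library, and the share of reads aligned was 47.5% to 54.1%. Values are log2 normalised read counts as deposited, and no counts per gene were used, so the counting error of a value is unknown and is part of the SD. Fermt1, which encodes kindlin-1, was at 0.42 to 0.80 in the GFP libraries, 5.18 to 6.00 in α9k1-naive and 6.42 to 7.73 in α9k1-crush. Itga9 was at 0.90 to 2.40, 2.38 to 5.16 and 5.53 to 7.51. These levels follow the labels, with Itga9 of 1 α9k1-naive library (2.38) among the GFP values. All 15 sensory neuron markers were measured, with a summed level (log2 of the sum of linear values) of 13.19 to 14.51 over all libraries. All 10 glia markers were measured too, with a summed level of 14.53 to 16.84, so the sorted cells held glial RNA. Differences come from 1 limma fit of the 19 libraries (log2FC ± SE) whose covariates were 3 principal components of the library metrics, and a call means an adjusted p (Benjamini-Hochberg, over the whole table) under 0.1. In bulk libraries, a change in the share of a cell type and a change in RNA per cell cannot be told apart.

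**Figure D1:**
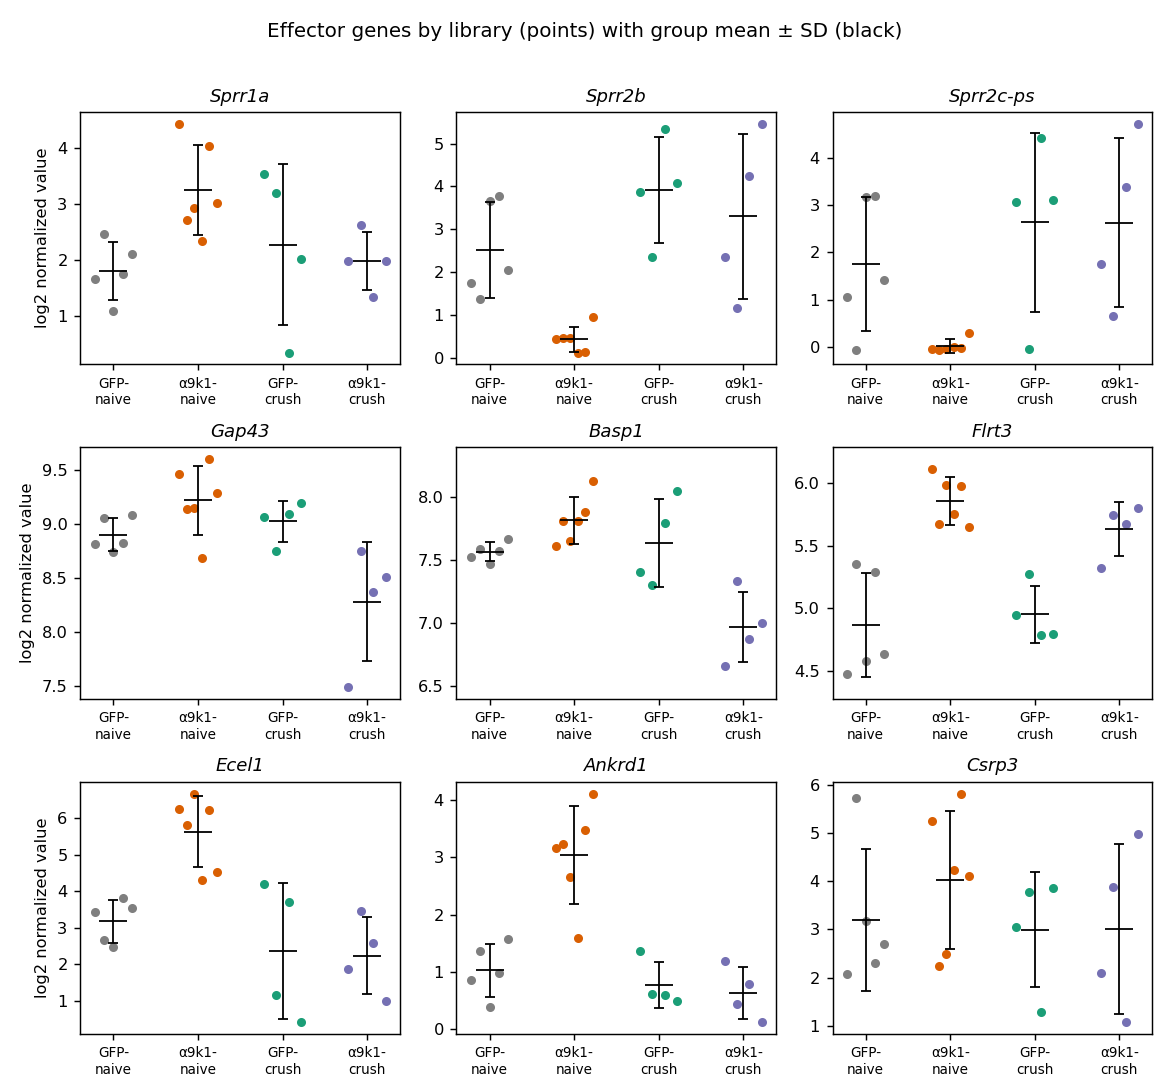
Deposited log2 normalised values (vertical axis) of the 9 measured effector genes in the 4 groups. Points are single libraries and black lines are the group mean ± SD. Ankrd1 and Ecel1 are highest in α9k1-naive, Sprr2b and Sprr2c-ps are lowest there, and Gap43 is lowest in α9k1-crush; the vertical scale differs between panels.

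Sprr1a (ENSMUSG00000050359, chromosome 3, 92483952 to 92485895, minus strand) was highest in α9k1-naive. Its values were 1.65, 2.46, 1.08, 1.74 and 2.10 in GFP-naive, and 2.34 to 4.44 with a median of 2.99 in α9k1-naive. They were 3.54, 3.20, 0.34 and 2.02 in GFP-crush and 1.99, 2.62, 1.33 and 1.98 in α9k1-crush. The GFP-crush libraries spread wider than any other group, and a single α9k1-naive library lay below the highest GFP-naive library. Group means were 1.81 ± 0.52 (SD, n = 5) in GFP-naive and 3.25 ± 0.81 (SD, n = 6) in α9k1-naive, 2.27 ± 1.45 (SD, n = 4) in GFP-crush and 1.98 ± 0.52 (SD, n = 4) in α9k1-crush. The difference of α9k1 from GFP in group means was 1.45 without crush and -0.29 after it, and in the fit 0.92 ± 0.66 and -1.90 ± 1.44. Crush alone gave a log2FC of 0.59 ± 0.66 in GFP neurons (limma adjusted p = 0.586).

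Sprr2b and Sprr2c-ps had the opposite order, with their lowest values in α9k1-naive. Sprr2b was at 1.74, 1.36, 3.66, 3.77 and 2.05 in GFP-naive but at 0.12 to 0.94 with a median of 0.45 in α9k1-naive, so that these groups did not overlap. After crush, Sprr2b was at 3.86, 2.34, 5.35 and 4.09 with GFP and at 2.34, 1.16, 4.24 and 5.46 with α9k1. The crush groups overlapped and both held libraries above every uninjured library. Sprr2c-ps was at 1.05, -0.07, 3.17, 3.18 and 1.41 in GFP-naive, and at -0.06 to 0.30 with a median of -0.03 in α9k1-naive. It was at 3.07, -0.05, 4.41 and 3.10 in GFP-crush and at 1.75, 0.66, 3.37 and 4.71 in α9k1-crush. In all 6 α9k1-naive libraries Sprr2c-ps was under 0.5, as it was in 1 GFP-naive and 1 GFP-crush library and in no α9k1-crush library.

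**Figure D2:**
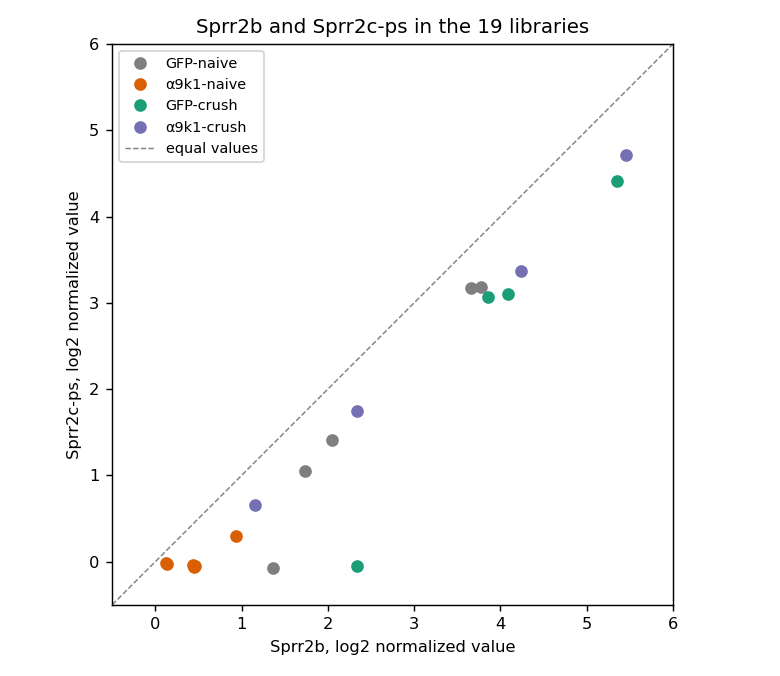
Sprr2b (horizontal axis) against Sprr2c-ps (vertical axis), both as deposited log2 normalised values, in the 19 libraries, coloured by group, with a dashed line of equal values. All libraries lie below the line, the 6 α9k1-naive libraries are together near 0, and 1 GFP-crush library has Sprr2b at 2.34 with Sprr2c-ps at -0.05.

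The libraries that were high for Sprr2b were also high for Sprr2c-ps. Within GFP-naive, replicates 3 and 4 stood above the other libraries for both genes, and within α9k1-crush replicates 3 and 4 did. Both values may hold reads of the same transcripts, as given with the sequences, so they are not separate observations. Crush alone gave log2FC of 0.66 ± 0.84 for Sprr2b (limma adjusted p = 0.634) and 0.23 ± 0.95 for Sprr2c-ps (limma adjusted p = 0.896). Differences of group means between α9k1-crush and α9k1-naive were 2.88 and 2.60, and the fit gave 4.96 ± 1.51 and 5.87 ± 1.70. Between α9k1-crush and GFP-crush the means of Sprr2c-ps were equal within 0.01 (2.63 ± 1.78 and 2.63 ± 1.90, SD, n = 4 each), whereas the fit gave 4.54 ± 2.06, so the fitted value departs from the means through the covariates alone. For Sprr2b the corresponding values were -0.61 in means and 2.61 ± 1.82 in the fit. Of 14 keratinocyte markers, only Krt10 and Sfn have a row, and their summed level was 4.10 to 4.78 in GFP-naive, 4.16 to 4.66 in α9k1-naive, 4.19 to 4.40 in GFP-crush and 3.29 to 3.62 in α9k1-crush. Krt10, the more abundant of them, was not called in any comparison. Sfn was at means of 1.57, 3.08, 1.29 and 1.93 in the same order of groups, and was called higher in α9k1-naive versus GFP-naive (1.66 ± 0.25, limma adjusted p = 0.000277) and lower in α9k1-crush versus α9k1-naive (-1.45 ± 0.45, adjusted p = 0.0763) and in GFP-crush versus GFP-naive (-0.67 ± 0.25, adjusted p = 0.0863). The calls of Sfn as lower were kept in 9 and 10 of the 19 fits that left out a library. The part of keratinocyte RNA in the Sprr values was not tested.

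Gap43 (ENSMUSG00000047261, chromosome 16, 42248442 to 42340651, minus strand) differed little between the GFP groups and was lowest in α9k1-crush. It was at 8.81, 9.05, 8.74, 8.82 and 9.08 in GFP-naive, at 8.68 to 9.60 with a median of 9.22 in α9k1-naive, at 9.06, 8.75, 9.09 and 9.19 in GFP-crush, and at 7.49, 8.75, 8.37 and 8.51 in α9k1-crush. Every α9k1-crush library was at or below the lowest GFP-crush library, and 1 of the 4 was far below the other 3. The α9k1 difference in means was 0.32 without crush and -0.74 after it, and in the fit 0.41 ± 0.27 and -0.88 ± 0.59. Crush alone gave 0.05 ± 0.27 (limma adjusted p = 0.927).

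Basp1 (ENSMUSG00000045763, chromosome 15, 25363285 to 25413764, minus strand) was ordered like Gap43. Its values were 7.52, 7.59, 7.47, 7.57 and 7.67 in GFP-naive and 7.61 to 8.13 with a median of 7.81 in α9k1-naive. They were 7.40, 7.30, 7.79 and 8.05 in GFP-crush and 6.66, 7.33, 6.87 and 7.0 in α9k1-crush. All α9k1-crush libraries lay below all α9k1-naive libraries. The α9k1 difference in means was 0.25 without crush and -0.67 after it, and in the fit 0.51 ± 0.16 and -0.12 ± 0.36. Crush alone gave -0.01 ± 0.17 (limma adjusted p = 0.982).

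Flrt3 (ENSMUSG00000051379, chromosome 2, 140650914 to 140671469, minus strand), a leucine-rich repeat protein that binds Unc5 and latrophilin receptors and acts in FGF signalling and axon guidance, had higher deposited values with α9k1 in both conditions. It was at 4.48, 5.35, 4.58, 5.29 and 4.64 in GFP-naive, at 5.65 to 6.11 with a median of 5.86 in α9k1-naive, at 4.95, 5.27, 4.79 and 4.80 in GFP-crush, and at 5.32, 5.74, 5.67 and 5.80 in α9k1-crush. Neither pair of groups overlapped, although the highest GFP-crush library (5.27) and the lowest α9k1-crush library (5.32) were close. The α9k1 difference in means was 0.99 without crush and 0.68 after it, and in the fit 0.71 ± 0.17 and 0.44 ± 0.36. The fitted value after crush was within 2 SE of 0 and turned negative when only the 2 crush groups were fitted. Crush alone gave 0.04 ± 0.17 (limma adjusted p = 0.897). Of 15 relatives and partners of Flrt3, 6 were measured, and in α9k1-naive versus GFP-naive only Rnd1 was called (log2FC 1.41 ± 0.21, limma adjusted p = 0.000253).

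Ecel1 (ENSMUSG00000026247, chromosome 1, 87147655 to 87156521, minus strand), a neuronal peptidase of the endothelin-converting enzyme family that is induced by nerve injury, was high in α9k1-naive only. It was at 3.44, 2.65, 2.47, 3.81 and 3.54 in GFP-naive, at 4.32 to 6.67 with a median of 6.01 in α9k1-naive, at 4.19, 1.16, 3.70 and 0.41 in GFP-crush, and at 1.87, 3.47, 2.58 and 0.99 in α9k1-crush. All α9k1-naive libraries were above every other library, and the GFP-crush libraries fell into a higher and a lower pair. The α9k1 difference in means was 2.45 without crush and -0.14 after it, and in the fit 2.19 ± 0.92 and -1.65 ± 2.0. Crush alone gave -0.54 ± 0.92 (limma adjusted p = 0.735). Its relatives Ece1 and Ece2 were called higher in α9k1-naive (0.57 ± 0.17 and 0.79 ± 0.21, limma adjusted p = 0.0269 and 0.0168), and the peptidase Mme (neprilysin) was called lower, by 1.13 on the log2 scale (limma adjusted p = 0.00349). None of these 3 was called without α9k1-naive replicate 6, where Mme was at -0.75.

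Ankrd1 (ENSMUSG00000024803, chromosome 19, 36111965 to 36119844, minus strand) encodes an ankyrin repeat protein of striated muscle that is induced in injured neurons. It was at 0.85, 1.37, 0.38, 0.98 and 1.57 in GFP-naive, at 1.59 to 4.11 with a median of 3.20 in α9k1-naive, at 1.36, 0.61, 0.60 and 0.49 in GFP-crush, and at 1.19, 0.44, 0.78 and 0.12 in α9k1-crush. All α9k1-naive libraries were above all others, the lowest of them (1.59) only just, and the remaining 3 groups overlapped near the bottom of the scale. The α9k1 difference in means was 2.01 without crush and -0.14 after it, and in the fit 2.36 ± 0.44 and -0.51 ± 0.96. Crush alone gave -0.63 ± 0.44 (limma adjusted p = 0.356). Among 8 measured relatives and Yap targets, Cyr61 rose in α9k1-naive (2.29 ± 0.27, limma adjusted p = 2.47e-05) and fell in GFP-crush by 1.45 (adjusted p = 0.00337), and Lats2 rose by 0.77 ± 0.21 in α9k1-naive (adjusted p = 0.0174). Csrp2, a LIM protein related to Csrp3, fell by 1.54 in α9k1-naive (adjusted p = 1.5e-05), and Ctgf (0.70 ± 0.29, adjusted p = 0.102) was not called.

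Csrp3 (ENSMUSG00000030470, chromosome 7, 48830398 to 48848033, minus strand), a LIM protein of muscle that is also made in injured sensory neurons, varied widely within each group. It was at 2.08, 5.72, 3.17, 2.31 and 2.69 in GFP-naive, at 2.25 to 5.82 with a median of 4.17 in α9k1-naive, at 3.06, 3.78, 1.28 and 3.85 in GFP-crush, and at 2.09, 3.89, 1.07 and 4.99 in α9k1-crush. All 4 groups overlapped. The α9k1 difference in means was 0.83 without crush and 0.01 after it, with 1.04 ± 1.11 and 1.93 ± 2.42 in the fit, and crush alone gave -1.01 ± 1.12 (limma adjusted p = 0.58). Of 15 striated muscle markers, 3 (Acta1, Mylpf and Des) have a row, none was called in any comparison, and their summed level was 5.08 to 5.38 in GFP-naive, 4.42 to 6.56 in α9k1-naive, 5.07 to 5.63 in GFP-crush and 4.69 to 5.28 in α9k1-crush.

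Sox11 itself was not analysed here. Of 8 relatives in the Sox family, 7 were measured and none was called higher in any comparison. Sox4, which belongs to the same SoxC group as Sox11 and is also an injury gene, was at 5.19 ± 0.24 (SD, n = 5) in GFP-naive, 4.60 ± 0.35 (SD, n = 6) in α9k1-naive, 4.89 ± 0.27 (SD, n = 4) in GFP-crush and 4.37 ± 0.38 (SD, n = 4) in α9k1-crush. It was called in GFP-crush alone, lower by 0.46 (limma adjusted p = 0.0722), and this call was made in 13 of the 19 fits that left out a library and in 2 of the 8 other alternatives. The third SoxC gene, Sox12, fell by 0.49 in α9k1-naive (limma adjusted p = 0.0291), and neither it nor Sox8 was called without α9k1-naive replicate 6. The glial factors Sox10 and Sox8 fell by 1.45 and 1.44 there (adjusted p = 9.91e-06 and 0.0107).

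Without crush, 7 of the 9 genes were higher with α9k1 in the fit and 2 were lower, with a median log2FC of 0.71 against -0.08 over all genes. Basp1, Ankrd1 and Flrt3 were called higher, beside 11.4% of all genes called higher and 29.1% called in either direction. In 4 genes (Sprr2b, Ankrd1, Ecel1 and Flrt3) the groups did not overlap, beside 21.7% of all genes. As the choice of the genes used this comparison, nothing is read from these counts. Basp1 was not called in the fit without α9k1-naive replicate 6. Immediate early genes moved together with this comparison, and all 10 were called higher, with a summed level of 11.93 to 12.26 in GFP-naive and 13.40 to 13.85 in α9k1-naive. Macrophage markers were higher as well (6 of 9 called, summed level 8.80 to 9.38 and 10.47 to 10.92), as were 3 of 10 glia markers while 4 fell, and all 5 measured endothelial and fibroblast markers fell (9.29 to 9.64 and 6.52 to 8.12). Their part in the values of the effector genes was not tested.

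After crush, 0 of the 9 genes were called in limma, beside 0.911% of all genes (0.728% higher). In Gap43 and Flrt3 the groups did not overlap, beside 40.8% of all genes. The median log2FC was -0.12, with 4 genes higher and 5 lower. The SE of every gene was larger than without crush. The variance factor of the comparison, which multiplies a gene's variance, was 3.11 with covariates and 0.5 without, as against 0.654 and 0.367 for α9k1-naive versus GFP-naive. Without covariates, 3 of the 9 genes were called, Gap43 and Basp1 lower and Flrt3 higher, beside 7323 of the 12629 genes. With α9k1, immediate early genes were higher after crush too (7 of 10 called, summed level 10.65 to 11.15 in GFP-crush and 12.09 to 12.72 in α9k1-crush).

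**Figure D3:**
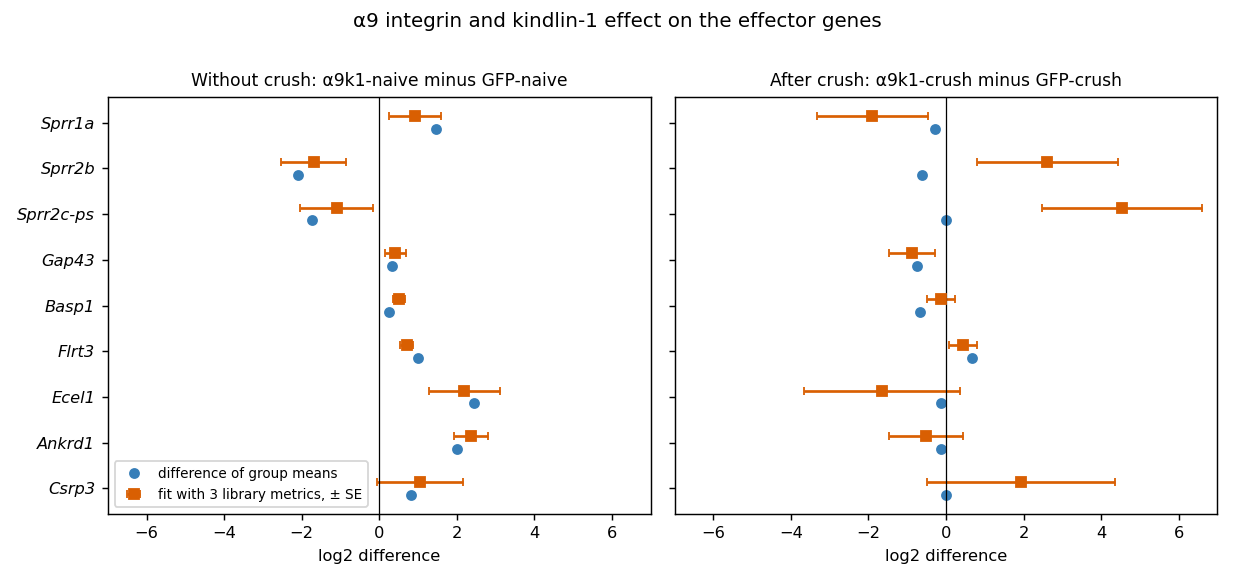
Difference between α9k1 and GFP (log2, horizontal axis) for the 9 effector genes, without crush (left) and after crush (right). Blue circles are differences of group means and orange squares are limma values ± SE with 3 library metrics as covariates. Ankrd1 is at 2.01 in means on the left and -0.14 on the right, and Ecel1 at 2.45 and -0.14; for Sprr2c-ps after crush the estimates are -0.01 and 4.54.

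The change in the α9k1 effect, after crush minus without crush, was negative in 6 of the 9 genes and positive in 3. In the fit it was -3.84 ± 1.89 for Ecel1, -2.87 ± 0.91 for Ankrd1, -2.82 ± 1.36 for Sprr1a, -1.29 ± 0.56 for Gap43, -0.63 ± 0.34 for Basp1 and -0.27 ± 0.34 for Flrt3. It was 4.30 ± 1.72 for Sprr2b, 5.64 ± 1.95 for Sprr2c-ps and 0.89 ± 2.29 for Csrp3. None of the 9 was called, beside 2.2% of all genes. In group means the change was -2.59 for Ecel1, -2.15 for Ankrd1, -1.74 for Sprr1a, -1.06 for Gap43 and -0.92 for Basp1, and these 5 genes were called without covariates, beside 4970 of 12629 genes. In group means, Csrp3 changed sign (-0.82), and the Sprr2 genes were at 1.48 and 1.72. The 5 genes with the most negative change had their highest mean in α9k1-naive, and the Sprr2 genes had their lowest there. As the set was chosen with this difference in view, these values are a description.

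In α9k1-crush versus α9k1-naive, 2 genes (Sprr2b and Sprr2c-ps) were called higher and Ankrd1 lower (-3.50 ± 0.79), beside 9.74% of all genes called (4.47% higher). In 5 genes, these and Ecel1 and Basp1, the groups did not overlap, beside 33.4% of all genes. The calls of Sprr2b were lost in 8 of the 19 fits that left out a library, those of Sprr2c-ps without GFP-naive replicate 3, GFP-naive replicate 4, GFP-crush replicate 2 or α9k1-crush replicate 4, and that of Ankrd1 without α9k1-naive replicate 4. Without α9k1-crush replicate 2, 5 of the 9 genes were called. The 9.74% is that of the full fit, and calls over all genes also moved when a library was left out, as given with the processing. This comparison was used in choosing the genes, and the Sprr2 values are not separate observations, so nothing is read from these counts. Cell type markers moved with this comparison as well. Of 10 glia markers 3 were called higher and 4 lower (summed level 16.33 to 16.84 in α9k1-naive and 14.53 to 15.19 in α9k1-crush). Of 15 sensory neuron markers 4 rose and none fell (13.19 to 13.60 and 14.10 to 14.51). Their part in the values of the effector genes was not tested.

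Crush alone, in GFP-crush versus GFP-naive, is the comparison least used in choosing the genes, though its libraries also enter the change in the α9k1 effect. Here 0 of the 9 genes were called in limma, beside 23.1% of all genes (7.39% higher, a share that depends on the scaling as given with the lists). Of the 9, 0 had an unadjusted limma p under 0.05, beside 3899 of the 12629 genes, and no gene had groups apart, beside 19.8% of all genes. The lowest adjusted p was 0.356, of Ankrd1. Standard errors ran from 0.17 (Basp1 and Flrt3) to 1.12 (Csrp3), and at the larger of these only changes of several log2 units could have been called.

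The genes most like Sprr1a over the 19 libraries were Smagp, Pvr, which is a cell adhesion receptor, and Stmn4, a stathmin that binds tubulin. Likeness was the mean absolute difference of row-scaled values, which was 0.46, 0.482 and 0.516 SD for them and had a median of 1.145 over all genes. Pvr had means of 2.90, 4.14, 3.10 and 3.43 in the order GFP-naive, α9k1-naive, GFP-crush, α9k1-crush. Among the set, Ankrd1 (0.636), Csrp3 (0.682) and Gap43 (0.725) were nearest to Sprr1a and Sprr2c-ps (1.51) was the farthest. Most like Gap43 were Ifi35 (0.316), Ctxn1 (0.344) and Serpinb1c (0.358), with a median of 1.083 over all genes. Ctxn1, which encodes the neuronal membrane protein cortexin, had means of 6.79, 7.11, 6.77 and 6.12 in the same order of groups. Basp1 was at 0.465 from Gap43, the nearest of the set.

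The effector genes were then set beside 4 lists of genes of the same injury response, of which 60 of 71 genes were measured. Without crush, 26 of the 60 rose with α9k1 and 9 fell, with a median of 0.43, beside 11.4% of all genes called higher and 17.6% called lower. After crush 5 rose and 0 fell, with a median of 0.18, beside 0.728% and 0.182% of all genes, so that fewer calls were made over the whole table as well, and 8 rose without GFP-crush replicate 1. The counts after crush depended on the covariates, with 27 higher and 15 lower when none were fitted, 15 and 3 with 2 covariates, and 0 higher when only the 2 crush groups were fitted. Counts over all genes moved the same way in these settings, as given with the processing. A missing call after crush therefore does not show that an effect was absent. Of 11 transcription factors, 10 rose in α9k1-naive, among them Myc (3.01 ± 0.21, limma adjusted p = 1.11e-07), Atf3 (2.99 ± 0.17, adjusted p = 1.18e-08) and Cebpb (2.37 ± 0.16, adjusted p = 6.79e-08). The exception was Sox4. Atf3 was at 7.08 ± 0.11 (SD, n = 5) in GFP-naive, 10.09 ± 0.06 (SD, n = 6) in α9k1-naive, 6.52 ± 0.22 (SD, n = 4) in GFP-crush and 8.64 ± 0.33 (SD, n = 4) in α9k1-crush. After crush the 5 genes that rose were all transcription factors, namely Myc (3.20 ± 0.46), Cebpb (2.73 ± 0.35), Atf3 (2.16 ± 0.36), Klf6 (1.92 ± 0.34) and Jun (1.31 ± 0.27), with limma adjusted p from 0.0011 to 0.0393. Jun was not called without GFP-naive replicate 1 or α9k1-naive replicate 4. In none of the 11 was the change in the α9k1 effect called.

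**Figure D4:**
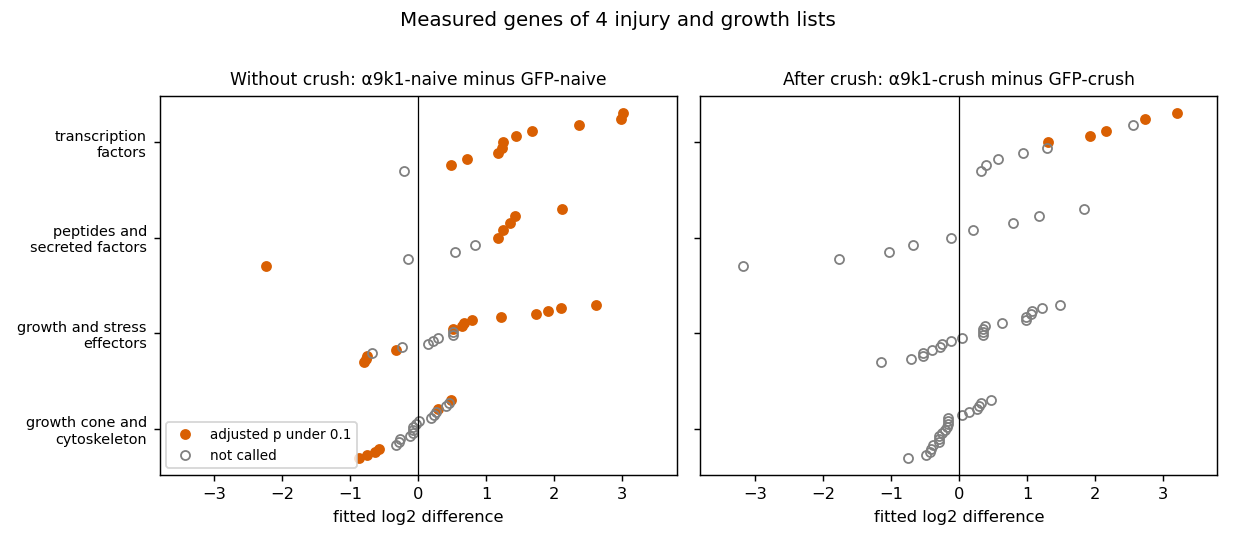
Fitted log2 difference between α9k1 and GFP (horizontal axis) for each measured gene of the 4 injury and growth lists, without crush (left) and after crush (right). Filled points are genes called at a limma adjusted p under 0.1. On the left 26 genes are called higher and 9 lower; on the right 5 are called, all among the transcription factors.

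Of 9 peptides and secreted factors, 5 rose in α9k1-naive and Npy fell by 2.23 (limma adjusted p = 0.0671). The groups of Npy overlapped, with means of 5.17 ± 0.91 (SD, n = 5) and 4.29 ± 1.12 (SD, n = 6), and it was called in 13 of the 19 fits that left out a library (-3.29 to -1.64) and in 5 of the 8 other alternatives. The largest rises were those of galanin, Gal (2.12 ± 0.40, adjusted p = 0.00149), the metalloproteinase inhibitor Timp1 (1.42 ± 0.14, adjusted p = 3.22e-06) and the peptide PACAP, Adcyap1 (1.35 ± 0.31, adjusted p = 0.00614), with Bdnf and Csf1 after them. None was called after crush. Crush alone raised Npy by 3.96 ± 0.83 (adjusted p = 0.00711), a call kept in all 19 fits that left out a library. These groups overlapped too, at 4.18 to 5.98 in GFP-naive and 5.53 to 9.47 in GFP-crush. Of 20 growth and stress effectors, 9 rose and 4 fell in α9k1-naive and 0 were called after crush. Among those that rose were Cdkn1a (2.61 ± 0.32, adjusted p = 3.95e-05) and Gadd45a (2.10 ± 0.21, adjusted p = 4.09e-06), and Ptprf, Itga7 and Lgals1 fell by 0.80, 0.76 and 0.75. Of 20 growth cone and cytoskeleton genes, the list to which Gap43 and Basp1 belong by function, 2 rose (Crmp1 0.49 ± 0.15 and Tuba1a 0.29 ± 0.10) and 4 fell (Map1b, Prkce, Marcks and Prkca, by 0.87, 0.75, 0.63 and 0.57). Without α9k1-naive replicate 6 all of these but Prkce lost their call, with Crmp1 at 0.32, Marcks at -0.35 and Prkca near 0. Tuba1a and Map1b were not called without GFP-naive replicate 1 either, nor Map1b without GFP-crush replicate 3, nor Prkca without GFP-naive replicate 2. The list median was -0.07, beside -0.08 over all genes.

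Crush alone raised 8 and lowered 19 of the 60 genes, and with libraries centred on their medians these counts were 12 and 13. Over all genes 7.39% were called higher and 15.7% lower, which is 933 and 1984 genes, and centring turned this split to 1826 higher and 1180 lower. Of the transcription factors 9 fell, among them Nfil3, Cebpd and Myc by 1.37, 1.11 and 1.04 (limma adjusted p = 0.00984, 0.000554 and 0.00649), and all 10 immediate early genes fell. Of the growth cone genes, Map1b (1.16 ± 0.31, adjusted p = 0.0223), Tubb3 (0.55 ± 0.13, adjusted p = 0.0141), Tuba1a and Stmn3 rose, and 7 fell. Map1b and Stmn3 were not called without GFP-naive replicate 2, nor Stmn3 without GFP-crush replicate 2. Cell type markers moved with this comparison too. Of 15 sensory neuron markers, Tubb3 among them, 7 rose and 1 fell, with a summed level of 13.54 to 13.92 in GFP-naive and 14.13 to 14.50 in GFP-crush. Of 9 macrophage markers 6 rose (8.80 to 9.38 and 11.02 to 11.69), of 10 glia markers 5 fell and 1 rose (15.82 to 16.19 and 15.15 to 15.49), and of 5 endothelial and fibroblast markers 3 fell. Their part in the changes of the list genes was not tested. Centring moved the median of all genes from -0.08 to 0.06 in this comparison. Without GFP-naive replicate 2, 4 of the 60 genes rose and 12 fell.

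In 7 of the 60 genes, and in Mme, the α9k1 effect after crush differed from that without crush (limma interaction, adjusted p under 0.1, beside 2.2% of all genes). Without covariates 9 of the 60 were called higher and 17 lower, and with 2 covariates 7 and 12. In both settings the calls over all genes rose far above 2.2% as well, as given with the processing, so these counts are not set against that share. Gal was at 6.96 ± 0.33 (SD, n = 5) in GFP-naive, 8.78 ± 0.68 (SD, n = 6) in α9k1-naive, 7.33 ± 0.97 (SD, n = 4) in GFP-crush and 7.06 ± 0.70 (SD, n = 4) in α9k1-crush, with an interaction of -3.88 ± 0.82 (adjusted p = 0.0379). Stmn4 had -1.95 ± 0.44 (adjusted p = 0.0482), Timp1 -1.22 ± 0.28 (adjusted p = 0.0537), Adcyap1 -2.38 ± 0.64 (adjusted p = 0.0993), the small heat shock protein Hspb1 -1.05 ± 0.25 (adjusted p = 0.0668) and the tubulin Tubb6 -0.92 ± 0.23 (adjusted p = 0.0712). In these 6 genes α9k1 gave a rise without crush and no call after it, though the rises of Stmn4 and Hspb1 were not called without α9k1-naive replicate 6, where Hspb1 was at 0.33. The laminin receptor subunit Itga7 (1.11 ± 0.27, adjusted p = 0.0646) and Mme (1.81 ± 0.49, adjusted p = 0.0996) had the opposite sign, with a fall without crush. Without covariates, where the values are those of the group means, all 8 genes kept their sign and were called, but Gal was at -2.08 and Stmn4 at -0.94, and with 2 covariates, at -1.70 and -0.82, neither was called. Leaving out GFP-crush replicate 2 left 0 of the 60 genes called lower in the interaction. The number was 1 without GFP-naive replicate 3, α9k1-naive replicate 1 or α9k1-naive replicate 4, and 3 without GFP-naive replicate 4 or α9k1-crush replicate 4. Among the 19 such fits Gal was called in 18, Stmn4 and Timp1 in 14, Hspb1 in 12, Itga7 in 11, Tubb6 in 10, Mme in 6 and Adcyap1 in 3.

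**Figure D5:**
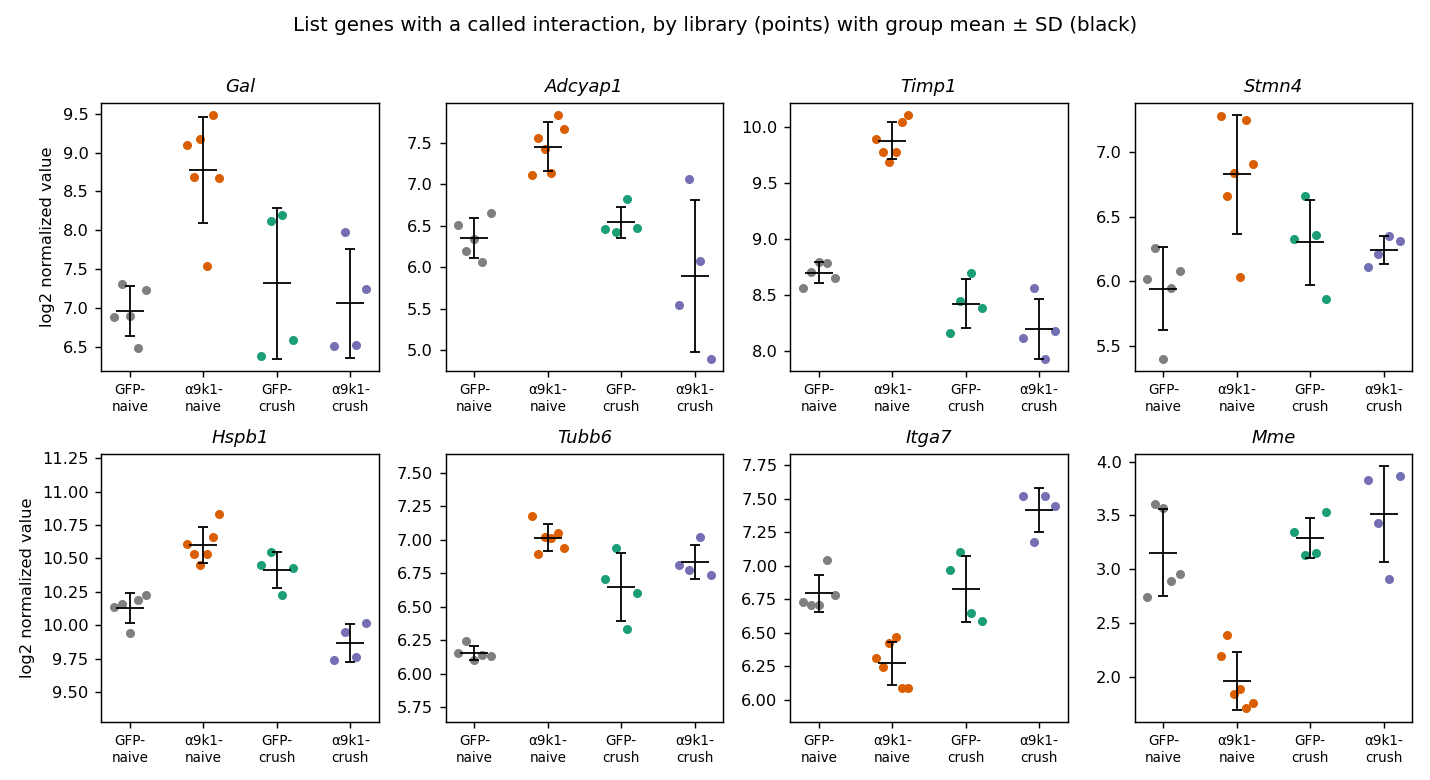
Deposited log2 normalised values (vertical axis) by group for the 7 list genes and Mme with a called interaction. Points are libraries and black lines are the mean ± SD. Timp1 lies at 9.68 to 10.10 in α9k1-naive and at 7.93 to 8.79 in the other groups, and Itga7 and Mme are lowest in α9k1-naive.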

How the data were processed

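According to the methods of the study, the authors amplified cDNA with SMART-Seq v4, aligned reads to mm10 with STAR, counted them per gene with Salmon (versions not given in the sources used here), removed genes with few reads, and normalized log2 counts for gene length and depth with cqn. The labels name RNA from papain-dissociated cells and the RNeasy Micro kit, and the methods name another dissociation and kit. The log2 values were used as deposited by the authors. Rows were named through a table of genes in the same order, which was checked by the correlation of row means with the authors' mean column (0.9592, and at most 0.0958 when shifted or shuffled). That table also holds log2 fold changes and p-values deposited by the authors for their 4 comparisons, which were not used. Library metrics were deposited by the authors as counts, fractions, percentages and ratios computed with Picard, and 5 of the columns on duplicates hold the value of a neighbouring metric.

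One limma fit (limma 3.58.1, R 4.3.3) took all 19 libraries, 4 group means and the first 3 principal components (45.9%, 24.1% and 11.5% of variance) of 48 scaled metrics. Batch is not in the labels and was left out. Adjusted p-values are Benjamini-Hochberg over 12629 genes. The fit was tested on simulated data. Groups that do not overlap were counted on deposited values. The genes and lists were chosen with earlier results of these data known. Named genes are the effector genes, up to 3 called genes at each end of every list and comparison, the 3 genes most like Sprr1a and like Gap43, the transgenes and called marker genes. Other list genes named only complete a count of 5 or fewer and were chosen after their values were seen. Some results of single list and marker genes are not reported here. Alternatives were 8 other fits and leaving out each library. Sequences were read with Python 3.11.15 and aligned with Biopython 1.88.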

Additional observations from a re-analysis of the deposited data

Results flagged for a closer look

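Over 36 groups of 4 to 6 libraries, each effector gene in each group, 2 held a library far from the others, where chance gives about 1 in 20. Sprr2c-ps in α9k1-naive replicate 6 was at 0.30, with the nearest other library of the group at -0.01, and both are near the bottom of the scale. Ankrd1 in GFP-crush replicate 1 was at 1.36, with the nearest at 0.61.

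In 8 genes of the lists set beside the effector genes, the effect of α9k1 after crush differed from that without crush (limma interaction at an adjusted p under 0.1). The differences, as the log2 effect after crush minus that without, were -3.88 for Gal, -2.38 for Adcyap1, -1.95 for Stmn4, -1.22 for Timp1, -1.05 for Hspb1, -0.92 for Tubb6, 1.11 for Itga7 and 1.81 for Mme.

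Among the marker genes of other cell types and of neurons, the same test called the fibroblast genes Dcn (4.87), Col1a2 (2.06) and Col1a1 (1.99), the glial gene Fabp7 (-1.23), the antigen presentation gene Cd74 (-2.01), and the neurofilament genes Nefh (2.0) and Nefm (1.74). Of the 19 fits that left out a library, Col1a1 and Col1a2 were called in all, Cd74 in 14, Fabp7 in 13, Dcn in 12, Nefm in 10 and Nefh in 7. Their part in the values of the effector genes was not tested.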

How the results depend on the processing

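Some effector genes were near the bottom of the scale, with Sprr2c-ps under 0.5 on the log2 scale in 8 of 19 libraries and Sprr2b in 5. The size of 1 read on this scale is unknown, and the part of depth in these values was not tested. The filter removed Sprr1a, Sprr2b, Sprr2c-ps and Ankrd1, so they have no value under it, and the interaction needs all groups and was not fitted with only the 2 groups compared. Among the recomputed values of called list genes, 1898 stayed called in the same direction and 216 kept the direction but not the call. The covariates differed between the groups. The third component was at -4.486 to -2.548 in α9k1-crush and at -1.59 or higher in every other library. The first had a mean of -4.75 in GFP-crush and 3.29 in α9k1-crush. Fitted differences that involve α9k1-crush therefore cannot be fully told apart from these components. Why the counts move with the covariates was not tested.

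In the fit as reported, the calls among the 9 effector genes, the 60 list genes (higher and lower), the 54 marker genes and all genes were 3, 26, 9, 34 and 3669 in α9k1-naive versus GFP-naive. They were 0, 5, 0, 7 and 115 in α9k1-crush versus GFP-crush, and 0, 8, 19, 34 and 2917 in GFP-crush versus GFP-naive. In the other two they were 3, 1, 12, 19 and 1230 in α9k1-crush versus α9k1-naive, and 0, 1, 6, 8 and 278 in the interaction. Counts within 1.5 times of these are not repeated. Without covariates, the calls in α9k1-naive versus GFP-naive were 6 of the effector genes, 15 of the list genes lower and 5813 of all genes, and those in α9k1-crush versus GFP-crush were 3 of the effector genes, 27 of the list genes higher, 15 of the list genes lower, 31 of the marker genes and 7323 of all genes. Those in α9k1-crush versus α9k1-naive were 7 of the effector genes, 12 of the list genes higher, 30 of the list genes lower, 38 of the marker genes and 7017 of all genes, and those in the interaction were 5 of the effector genes, 9 of the list genes higher, 17 of the list genes lower, 31 of the marker genes and 4970 of all genes. With 2 covariates, the calls in α9k1-crush versus GFP-crush were 15 of the list genes higher, 3 of the list genes lower, 13 of the marker genes and 1244 of all genes, and those in α9k1-crush versus α9k1-naive were 7 of the effector genes, 13 of the list genes higher, 29 of the list genes lower, 37 of the marker genes and 7147 of all genes. Those in the interaction were 3 of the effector genes, 7 of the list genes higher, 12 of the list genes lower, 21 of the marker genes and 3366 of all genes. With a fit of just the 2 groups compared, the calls in α9k1-naive versus GFP-naive were 5 of the effector genes and 5 of the list genes lower, and those in α9k1-crush versus GFP-crush were 0 of the list genes higher, 0 of the marker genes and 0 of all genes. Those in GFP-crush versus GFP-naive were 3 of the list genes higher, 11 of the list genes lower and 924 of all genes, and those in α9k1-crush versus α9k1-naive were 1 of the effector genes, 0 of the list genes higher, 1 of the list genes lower, 3 of the marker genes and 202 of all genes. Without the 25% of genes with the lowest values, the calls in α9k1-crush versus α9k1-naive were 0 of the effector genes and 2 of the list genes higher. After quantile normalization, the calls in GFP-crush versus GFP-naive were 5 of the list genes higher, and those in α9k1-crush versus α9k1-naive were 3 of the list genes higher. With median-centred libraries, the calls in the interaction were 0 of the list genes higher. With array weights, the calls in α9k1-crush versus GFP-crush were 178 of all genes, and those in α9k1-crush versus α9k1-naive were 5 of the effector genes, 3 of the list genes higher and 2045 of all genes. Those in the interaction were 2 of the list genes higher and 550 of all genes.

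The replicate numbers of the labels did not pair the libraries, since libraries of the same number correlated at -0.269 to 0.149 (median 0.0204) in their deviations from the group means, with 4 of 25 pairs over 0.1. With the replicate number as a block (the replicate block), the calls in α9k1-naive versus GFP-naive were 1 of the effector genes and 5 of the list genes lower, and those in α9k1-crush versus GFP-crush were 3 of the list genes higher and 57 of all genes. Those in α9k1-crush versus α9k1-naive were 0 of the effector genes, 0 of the list genes higher, 2 of the list genes lower, 8 of the marker genes and 331 of all genes, and those in the interaction were 0 of the list genes higher, 0 of the list genes lower, 0 of the marker genes and 26 of all genes. Ankrd1 stayed called in α9k1-naive versus GFP-naive, Basp1 and Flrt3 did not, and the block changed no other call of an effector gene except those of Sprr2b, Sprr2c-ps and Ankrd1 in α9k1-crush versus α9k1-naive.

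Leaving out 1 library at a time, the calls in α9k1-crush versus GFP-crush ranged over 4 to 8 of the list genes higher, 4 to 8 of the marker genes and 64 to 167 of all genes, and those in GFP-crush versus GFP-naive ranged over 4 to 10 of the list genes higher, 12 to 20 of the list genes lower and 1502 to 3175 of all genes. Those in α9k1-crush versus α9k1-naive ranged over 1 to 5 of the effector genes, 1 to 3 of the list genes higher, 7 to 16 of the list genes lower, 11 to 21 of the marker genes and 651 to 1744 of all genes, and those in the interaction ranged over 0 to 2 of the list genes higher, 0 to 7 of the list genes lower, 3 to 11 of the marker genes and 118 to 441 of all genes. The lowest numbers over all genes came without α9k1-naive replicate 4 for α9k1-crush against either group, without GFP-naive replicate 2 for crush alone and without GFP-naive replicate 3 for the interaction, and the highest in the interaction came without α9k1-crush replicate 2.

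In GFP-crush versus GFP-naive, where no effector gene was called, Gap43 (0.05) was at -0.07 after quantile normalization, and Basp1 (-0.01) was at 0.07 without covariates, 0.13 with median-centred libraries, 0.04 with array weights, 0.01 with the replicate block and 0.03 with only the 2 groups compared. Leaving out 1 library at a time gave -0.29 to 1.18 for Sprr2b, -0.89 to 1.10 for Sprr2c-ps, -0.06 to 0.22 for Gap43, -0.18 to 0.09 for Basp1, -1.31 to 0.34 for Ecel1 and -0.07 to 0.13 for Flrt3. Of the values described without a test, those of α9k1-naive versus GFP-naive kept their sign in all 9 genes under the 8 alternatives that used every library of the groups compared, and those of α9k1-crush versus GFP-crush did so only in Sprr1a, Gap43 and Csrp3.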

Other observations

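The neurofilament genes encode the intermediate filaments of large axons and are known to fall in sensory neurons after a peripheral nerve cut. Without crush, Nefm, Nefh and Nefl had a log2FC of -2.42 ± 0.21, -2.32 ± 0.25 and -2.10 ± 0.23 (SE) with α9k1, with limma adjusted p = 1.26e-06, 1.17e-05 and 1.54e-05. Nefm was at 10.22 to 10.82 in the 5 GFP-naive libraries and at 8.04 to 8.55 in the 6 α9k1-naive libraries, so that these groups did not overlap, beside 21.7% of all genes. Crush alone gave rises of 0.96 ± 0.21, 0.79 ± 0.25 and 1.02 ± 0.24 (limma adjusted p = 0.00948, 0.0498 and 0.0116). After crush, none of the 3 was called between α9k1 and GFP, and the sign of the difference depended on the covariates. The fitted values were -0.67 ± 0.46, -0.32 ± 0.55 and -0.39 ± 0.51, while the means in α9k1-crush (11.48, 10.46 and 12.56) were at or above those in GFP-crush (11.42, 10.08 and 12.10). In α9k1-crush versus α9k1-naive they rose by 2.71 ± 0.38, 2.79 ± 0.45 and 2.73 ± 0.42 (limma adjusted p = 0.00154, 0.00376 and 0.00275). The rise of Nefh with crush was not called without GFP-naive replicate 2, GFP-crush replicate 1 or GFP-crush replicate 2. Of all 15 sensory neuron markers, 1 rose and 4 fell in α9k1-naive versus GFP-naive, namely Prph (0.34 ± 0.13, limma adjusted p = 0.0664) and, beside the neurofilament genes, Snap25 (-0.48 ± 0.17, adjusted p = 0.0606). Prph ranged over 0.15 to 0.41 when 1 library was left out, and was not called without GFP-naive replicate 2, GFP-naive replicate 4, α9k1-naive replicate 5 or α9k1-naive replicate 6. Snap25 was not called without GFP-naive replicate 1, α9k1-naive replicate 6 or GFP-crush replicate 3. In GFP-crush versus GFP-naive 7 rose, which were the 3 neurofilament genes, Tubb3 (0.55 ± 0.13), Uchl1 (0.47 ± 0.10), Snap25 (0.58 ± 0.17) and Isl1 (0.72 ± 0.22), and the sodium channel gene Scn9a fell (-0.88 ± 0.16), with limma adjusted p from 0.00353 to 0.0498. Isl1 and Snap25 lost this call without GFP-naive replicate 2 or GFP-crush replicate 1, and Snap25 also without GFP-crush replicate 2.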
